A study of Homo sapiens with 9 samples.

Results

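The zinc finger genes with symbols from ZNF500 to ZNF899 were followed in KG-1a, a line of immature myeloid cells from a human acute leukaemia, with and without CRISPR/Cas9 knockout of PRMT2, which encodes a protein arginine methyltransferase. Members were chosen by symbol, as given in the authors' deposited table, and by their measured level, a mean over the 9 libraries of at least 1 CPM (the gene's share of the counted read pairs, times 1000000). The level is a mean over all groups, so a gene low in 1 group can pass through the groups where it is high, as did ZNF555 (0.605 CPM in WT), ZNF815P, ZNF534 and ZNF821. Of 287 symbols of that form, 228 were members, out of 60605 genes in the files. The 9 libraries formed 3 groups of 3: wild-type cells (WT), knockout clone 1 and knockout clone 2, all of the same line, grown under the same conditions and without drug. Each knockout group is 1 clone, so a difference from WT in 1 clone cannot be told apart from a difference of that clone itself. Whether the WT cells were cloned is not stated. A difference that comes with cloning and is shared by both clones therefore cannot be told apart from one of the knockout either. Whether replicates came from separate cultures is not stated, so p-values may measure only technical spread.

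C2H2 zinc finger proteins form the largest family of DNA-binding proteins in the human genome. Each finger folds around a zinc ion held by cysteine and histidine residues, and tandem fingers read a stretch of DNA together. Many members also carry a Krüppel-associated box (KRAB), which recruits the corepressor TRIM28 and, through it, the histone methyltransferase SETDB1, and the DNA targets of many such proteins are transposable elements. The genes arose largely by tandem duplication and lie in clusters on chromosome 19, where they are themselves marked by repressive chromatin in many cell types. Others in the same range of symbols have no KRAB and serve as developmental or lymphoid regulators, or work outside DNA binding.

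Chromosome 19 held 128 of the 228 members (56.1%), chromosome 7 held 15, chromosome 16 held 14 and chromosome 1 held 13. The annotation (GENCODE release 44, GRCh38) gave 217 members as protein-coding and 11 as pseudogenes. A search of the coding sequences found the KRAB pattern in 146 of the 217, 105 of them on chromosome 19. Proteins with the pattern held a median of 11 C2H2 fingers, and the 71 without it held a median of 7. Finger numbers ranged from 0 to 30, the latter in ZNF646. The count of 0 in ZNF703 says that its finger does not have the spacing searched.

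RefSeq promoter windows of 300 bases (250 upstream of the start and 50 downstream, GRCh38.p14) were matched by symbol to 184 members. Their windows held a median of 22 CG dinucleotides, against 13 over all 27305 windows and 26 over the 9352 windows of protein-coding genes tested at 1 CPM or more. The letters CCGGAAG, the core of many ETS factor sites, were found on either strand in 42.4% of the members' windows, against 10.6% of all windows and 20.5% of those of the protein-coding genes. The letters CCAAT were found in 50.5% of the members' windows, against 35.7% and 37.7%. The letters ACTACAA were found in 3.26%, 2.94% and 4.06% of the same groups. No 2 of the 3 words overlap in their letters. These are matches of letters, not binding sites.

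Of the 4 members called in both clones, the promoters of 3 are shown with those of 2 neighbouring zinc finger genes that differed little, to let the windows be compared. They are written 5′ to 3′ on the gene's strand, upstream of the start and ending before any annotated exon, with CG dinucleotides in capitals. ZNF555 (chr19:2841225-2841436, plus strand) lies beside ZNF554 (chr19:2819618-2819867, plus strand). ZNF677 (chr19:53254899-53255123, minus strand) is followed, among the coding genes tested, by ZNF845 (chr19:53333499-53333748, plus strand). ZNF683 (chr1:26372795-26373044, minus strand) encodes a lymphoid regulator, and its RefSeq start lies inside the longer gene annotated by GENCODE.
ZNF555: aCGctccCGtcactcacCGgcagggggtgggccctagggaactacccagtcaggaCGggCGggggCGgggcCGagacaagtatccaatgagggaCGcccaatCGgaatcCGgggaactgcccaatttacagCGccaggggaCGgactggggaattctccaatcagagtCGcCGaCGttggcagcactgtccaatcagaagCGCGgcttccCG
ZNF554: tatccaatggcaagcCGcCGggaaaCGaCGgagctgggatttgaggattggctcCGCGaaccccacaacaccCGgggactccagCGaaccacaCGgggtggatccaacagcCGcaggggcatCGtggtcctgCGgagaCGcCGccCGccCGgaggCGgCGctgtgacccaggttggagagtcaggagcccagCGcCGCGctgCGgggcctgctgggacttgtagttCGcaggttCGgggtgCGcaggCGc
ZNF677: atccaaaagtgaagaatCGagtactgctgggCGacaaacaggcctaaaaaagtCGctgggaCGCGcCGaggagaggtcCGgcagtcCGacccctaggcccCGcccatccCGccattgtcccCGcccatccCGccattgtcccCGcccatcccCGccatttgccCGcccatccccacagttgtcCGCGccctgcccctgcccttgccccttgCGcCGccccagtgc
ZNF845: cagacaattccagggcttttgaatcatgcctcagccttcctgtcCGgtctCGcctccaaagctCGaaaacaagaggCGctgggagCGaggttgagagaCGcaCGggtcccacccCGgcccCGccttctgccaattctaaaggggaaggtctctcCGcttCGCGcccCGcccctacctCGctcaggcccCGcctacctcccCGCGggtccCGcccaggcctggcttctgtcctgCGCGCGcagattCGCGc
ZNF683: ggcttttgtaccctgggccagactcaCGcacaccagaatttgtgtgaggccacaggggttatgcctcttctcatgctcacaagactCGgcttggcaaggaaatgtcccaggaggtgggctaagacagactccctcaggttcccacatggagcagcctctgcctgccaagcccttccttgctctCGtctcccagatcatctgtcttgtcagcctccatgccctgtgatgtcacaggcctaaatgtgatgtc
The full windows of ZNF555 and ZNF554 held 25 and 34 CG, and those of ZNF677 and ZNF845 held 30 and 28. The window of ZNF683 held 3, in the range of the 7.07% of members with under 10. The ZNF555 window held 5 matches to CCAAT, a number reached by 2 of the 184 members and by 0.403% of all windows. The ZNF677 window held none, and both it and the ZNF845 window held CCGGAAG. CG number did not separate ZNF555 and ZNF677, which rose in the clones, from their neighbours.

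The libraries held 28006342 to 43149410 counted pairs, at which 3 counts, taken as the floor of detection, correspond to 0.0695 to 0.107 CPM. PRMT2 lay at 39.0 to 39.8 CPM in WT and at 20.2 to 21.4 CPM in the 6 knockout libraries, so its RNA was reduced but present. Of the markers of the line, CD34, PTPRC, SPN, CD44, RUNX1, MYB and LYL1 were at means of 139 CPM or more in every group. The markers of other cells (EPCAM, CDH1, KRT19, COL1A1, COL1A2, DCN, ALB and SNAP25) had group means of at most 0.438 CPM, and EPCAM, CDH1 and KRT19 were at 0 in all 3 WT libraries. Library 1 of clone 1 stood apart, where 13.3% of pairs mapped to more than 1 place, a share of 3.86% to 4.51% elsewhere. Between it and the other 2 libraries of clone 1, chi-square per degree of freedom was 49.5 and 50.6 over all genes but 3.21 and 3.57 over the members, where the other pairs of replicates gave 2.10 to 3.72.

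The first question was how many members changed in each clone. A gene is called here at a Benjamini-Hochberg adjusted p under 0.05, in edgeR's quasi-likelihood test over the 20655 genes tested, together with a log2 fold change of at least 1 in size. In 1 or both clones, 7 members differed this far, and 221 did not. In clone 1, 3 members rose and 3 fell, which is 2.63% of the members against 7.58% of all genes tested (2.6% higher and 4.98% lower). In clone 2, 3 rose and 2 fell, which is 2.19% against 5.96% (1.83% higher and 4.13% lower). ZNF555 and ZNF677 rose in both clones and ZNF683 and ZNF703 fell in both, which is 1.75% of members against 4.34% of all genes (1.3% and 3.04%). Among protein-coding genes at 1 CPM or more, the nearest background by level, the shares called were 5.8%, 4.47% and 3.33%. ZNF555 passed the level limit through the clones, where it is high, so its call is a description and lends the counts no support. Among the 224 members with every group mean at the limit or above, 5 were called in clone 1, 4 in clone 2 and 3 in both. The members' shares lay below the background in each case, with no test of that difference made. Both contrasts with WT share the 3 WT libraries. In RNA from whole cultures, fewer cells that express a gene and less of its RNA per cell cannot be told apart.

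**Figure D1:**
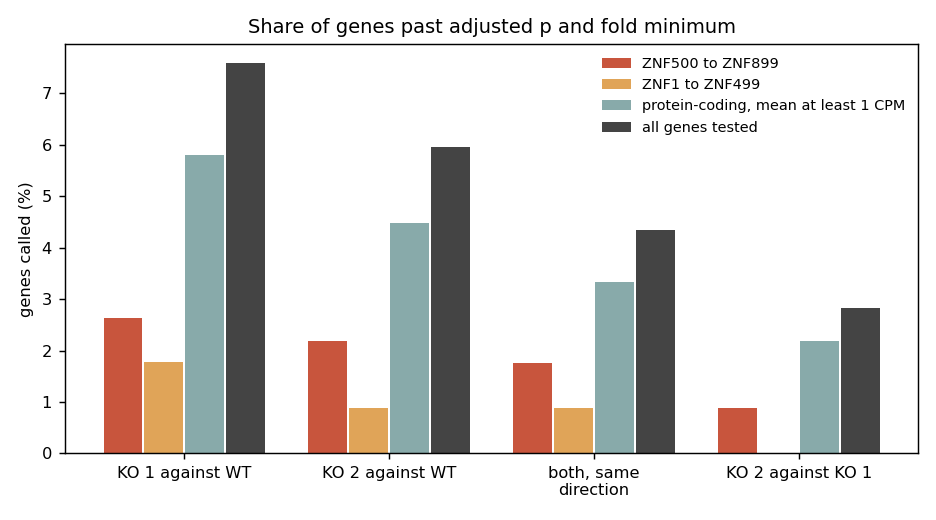
Share of genes called (%, y axis) at an adjusted p under 0.05 and a log2 fold change of at least 1 in size, for 3 sets of genes and for all genes tested, by comparison (x axis). The bars of the zinc finger genes from ZNF500 to ZNF899 (2.63% and 2.19% against WT) are lower than those of all genes tested (7.58% and 5.96%).

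Small differences were common among the members, as they were among all genes. On the adjusted p alone, 48 members were higher and 40 lower in clone 1 (38.6%, against 36.2% of all genes tested, 17.4% higher and 18.8% lower, and 48.7% of the protein-coding genes at 1 CPM or more). In clone 2, 43 were higher and 30 lower (32%, against 30.5%, 14.4% higher and 16.1% lower, and 41.8%). In both clones in the same direction, 25 were higher and 16 lower (18%, against 19.6%, 8.52% higher and 11% lower, and 26.7%). For the mean of both clones 96 members passed it (42.1%, against 35.3% of all genes tested and 47.3% of the protein-coding genes at 1 CPM or more). Between the clones 62 did (27.2%, against 25.9% and 37.7%). The 2 members past the adjusted p in opposite directions were ZNF593, whose protein acts in ribosome biogenesis (log2 fold change -0.28 and 0.17), and ZNF652 (0.23 and -0.14). The members' median log2 fold change was 0.03 in clone 1 and 0.01 in clone 2, beside 0.00 and 0.00 over all genes tested. In both clones, 208 members (91.2%) stayed within 0.5 of WT on the log2 scale, as did 74.0% of all genes tested and 84.3% of the protein-coding genes at 1 CPM or more.

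**Figure D2:**
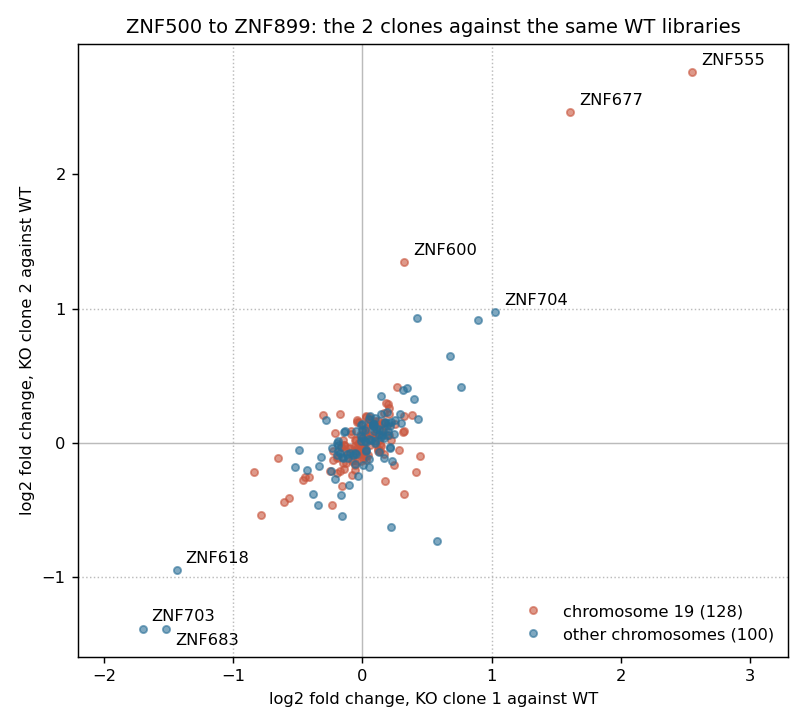
Log2 fold change of each of the 228 members in clone 1 (x axis) and clone 2 (y axis), both against the same 3 WT libraries, coloured by chromosome. ZNF555 and ZNF677 stand far up on both axes, ZNF703, ZNF683 and ZNF618 far down, and ZNF600 is high in clone 2 alone, while 208 members lie within 0.5 of 0 on both axes.

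The second question was whether any member was silenced or switched on. Silencing was defined as a call lower with a WT mean of at least 1 CPM and a clone mean under 0.3 CPM, and switching on as a call higher from under 0.3 CPM to at least 1 CPM. No member met either definition in either clone, by edgeR or by DESeq2. Over all genes tested, 150 were silenced in clone 1 and 114 in clone 2, and 28 and 21 were switched on. The member nearest to switching on was ZNF555, at 0.605 CPM in WT, and the one nearest to silencing was ZNF703, at 1.24 CPM in clone 1. The level rule leaves out genes that are low in every group, and 59 symbols fell below it, of which 12 had enough counts to be tested. None of the 59 met the definitions, but few could have. Both definitions require 1 CPM to be reached, in WT or in a clone. Only ZNF625 (1.11 CPM) and ZNF837 (1.18 CPM) reached it in WT, and only ZNF625 in a clone (1.00 CPM in clone 2). Loss from a lower level was therefore not assessed. ZNF516, which was not tested, was at 0.0522 (under the floor), 0.293 and 0.431 CPM in WT and at 0 in all 6 knockout libraries. It is named after its values were seen. Just inside the limit were ZNF815P (1.01 CPM) and ZNF534 (1.05 CPM), and just outside were ZNF625 (0.979 CPM) and ZNF837 (0.952 CPM). Of the 12 tested below the limit, 4 were called in 1 of the 2 clones: ZNF702P higher in clone 1 (1.97), ZNF629 and ZNF648 lower in clone 1 (-1.61 each), and ZNF705E lower in clone 2 (-1.18). All 4 had group means of at most 0.811 CPM.

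Of the KRAB genes, ZNF555 changed most. It encodes a protein of 628 residues with 15 fingers and lies at chr19:2841437-2860471 on the short arm. Its level was 0.548, 0.683 and 0.585 CPM in the WT libraries, 3.51, 3.76 and 3.50 CPM in clone 1, and 3.66, 4.75 and 4.07 CPM in clone 2. All 6 knockout libraries lay above all 3 WT libraries, and the clones overlapped. The log2 fold change was 2.56 ± 0.19 (SE, adjusted p = 1.04e-14) in clone 1 and 2.77 ± 0.18 (adjusted p = 3.20e-16) in clone 2. Clone 2 differed from clone 1 by 0.21 ± 0.14 (adjusted p = 0.313). The nearest tested zinc finger genes on either side had small values. ZNF554, 4702 bases upstream, had log2 fold changes of -0.17 and -0.03, and ZNF57, 40457 bases downstream, -0.29 and -0.07. Per kilobase of exon, ZNF555 was the third lowest member, at a mean of 0.326 CPM per kb over the 9 libraries, where the median member was at 4.34.

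ZNF677, a KRAB gene with 10 fingers that has been studied as a candidate tumour suppressor, lies at chr19:53235381-53254898 in a cluster on the long arm. It stood at 2.37, 2.39 and 2.22 CPM in WT, at 8.20, 6.74 and 6.54 CPM in clone 1 and at 13.4, 12.5 and 12.8 CPM in clone 2. The 3 groups did not overlap. Against WT the log2 fold change was 1.61 ± 0.12 (adjusted p = 6.63e-15) in clone 1 and 2.46 ± 0.11 (adjusted p = 6.70e-22) in clone 2. The difference between the clones, 0.85 ± 0.10 on the log2 scale (adjusted p = 3.19e-09), did not reach the fold of 1. On one side, ZNF845 and ZNF525 had log2 fold changes of 0.01 and 0.14 in clone 1 and of -0.08 and 0.10 in clone 2, none past the adjusted p. On the other lie 2 pseudogenes: NDUFV2P1, 10502 bases away, was at 0.46 (adjusted p = 0.0462) and 0.13 (adjusted p = 0.645), and ENSG00000269001, 20859 bases away, at -0.18 (adjusted p = 0.277) and -0.59 (adjusted p = 0.000210).

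ZNF600, a KRAB gene with 18 fingers at chr19:52749942-52786807 in the same cluster, was called in clone 2 only. Its level was 5.35, 6.39 and 6.07 CPM in WT, 7.61, 7.14 and 7.58 CPM in clone 1, and 14.9, 16.3 and 14.1 CPM in clone 2. Every clone 2 library lay above every other library, and the ranges of clone 1 and WT did not overlap either. The log2 fold change was 0.33 ± 0.10 (adjusted p = 0.00827) in clone 1 and 1.35 ± 0.09 (adjusted p = 6.18e-16) in clone 2. The clones differed by 1.02 ± 0.09 (adjusted p = 5.99e-12), a value that came to 0.99 without library 2 of clone 1 and to 0.97 without library 2 of clone 2. On either side, ZNF611 was at -0.08 and -0.24 and ZNF28 at -0.04 and 0.02. The genes of this array are close relatives, and the files keep pairs that map to several places apart from the gene counts, so these values rest on pairs that tell the genes apart.

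**Figure D3:**
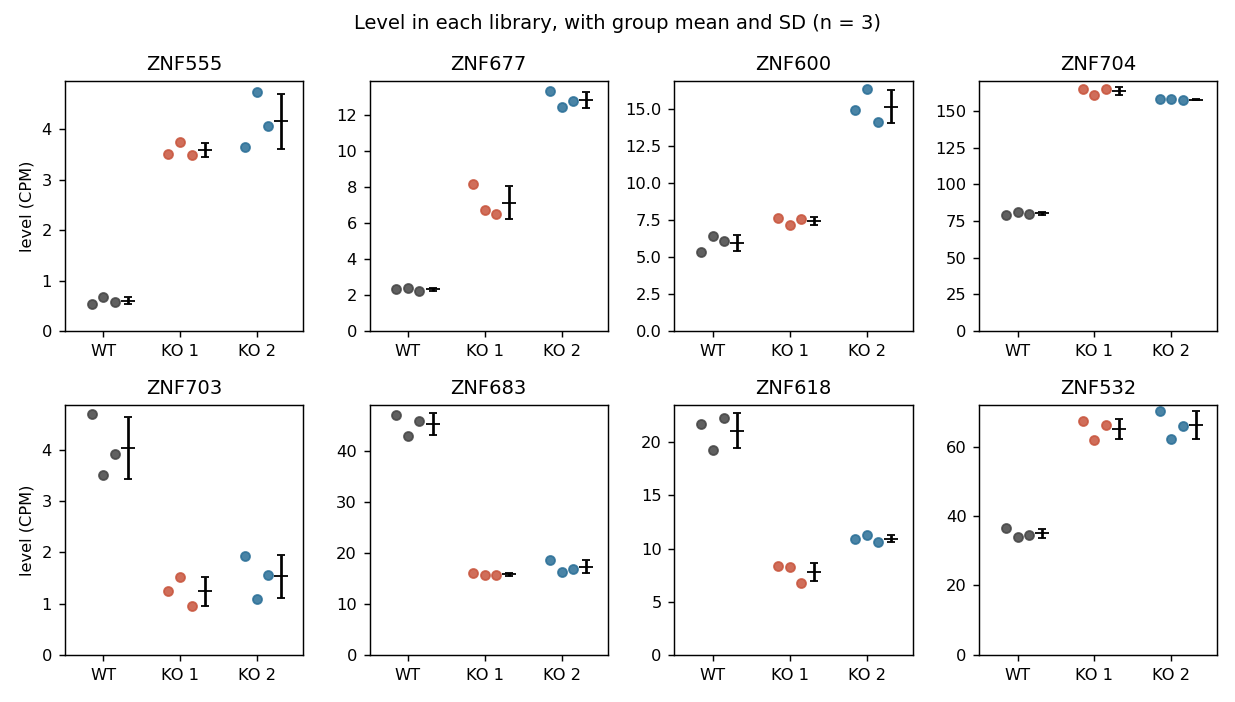
Level in CPM (y axis, from 0) in each of the 9 libraries for 8 members, with the mean and SD of each group of 3 beside the points. ZNF555, ZNF677, ZNF704 and ZNF532 are higher in all 6 knockout libraries than in WT, ZNF703, ZNF683 and ZNF618 are lower in all 6, and ZNF600 is highest in the 3 libraries of clone 2.

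The members called lower have no KRAB pattern. ZNF683, also called HOBIT, is a transcriptional repressor related to PRDM1 that is known from tissue-resident lymphocytes, and lies at chr1:26361634-26374522. It was at 47.0, 42.9 and 45.9 CPM in WT, at 16.1, 15.6 and 15.6 CPM in clone 1 and at 18.7, 16.3 and 16.8 CPM in clone 2. All 6 knockout libraries lay below all 3 WT libraries by a wide margin. It fell by 1.52 ± 0.06 on the log2 scale (adjusted p = 1.79e-23) in clone 1 and by 1.39 ± 0.06 (adjusted p = 1.36e-22) in clone 2, with a difference between the clones of 0.13 ± 0.07 (adjusted p = 0.147). The next gene, CRYBG2, which lies on the same strand 1554 bases downstream of ZNF683, fell with it: its log2 fold changes were -1.44 and -1.73. CD52, the next gene beyond and a surface antigen of lymphocytes, was at -0.35 and -0.53, past the adjusted p but not the fold, and DHDDS on the other side was at 0.03 and 0.02. Neighbours of called members were looked up after the members' values were seen.

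ZNF703, a corepressor of the NET family that is amplified in luminal breast cancer, lies on chromosome 8. It was at 4.70, 3.51 and 3.91 CPM in WT, at 1.24, 1.52 and 0.951 CPM in clone 1 and at 1.94, 1.09 and 1.57 CPM in clone 2. WT and knockout libraries did not overlap, and the clones did. Its log2 fold change was -1.70 ± 0.19 (adjusted p = 1.49e-09) in clone 1 and -1.39 ± 0.18 (adjusted p = 3.24e-08) in clone 2. ERLIN2, 36582 bases away, went the other way, with 0.46 and 0.26.

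ZNF618, which has been reported to bind DNA together with UHRF2, lies at chr9:113876282-114056593. It was at 21.7, 19.2 and 22.3 CPM in WT, at 8.34, 8.23 and 6.78 CPM in clone 1 and at 10.9, 11.3 and 10.6 CPM in clone 2. Every knockout library was below every WT library, and clone 1 was below clone 2. The log2 fold change was -1.44 ± 0.09 (adjusted p = 6.62e-18) in clone 1, which was called, and -0.95 ± 0.08 (adjusted p = 3.94e-13) in clone 2, which missed the fold. It came to -1.01 in clone 2 without library 2 of WT. The clones differed by 0.49 ± 0.09 (adjusted p = 3.30e-05). RGS3, the nearest protein-coding gene upstream, had the opposite order, with -0.92 in clone 1 and -1.40 in clone 2.

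ZNF704 also lies on chromosome 8 and was the highest of the called members. It was at 79.4, 81.4 and 79.6 CPM in WT, at 165, 160 and 165 CPM in clone 1 and at 158, 158 and 157 CPM in clone 2. No WT library was above 81.4 CPM and no knockout library below 157 CPM. The log2 fold change was 1.03 ± 0.03 (adjusted p = 1.62e-27) in clone 1, where it was called, and 0.98 ± 0.03 (adjusted p = 1.01e-26) in clone 2, where it fell just short of the fold. The clones were not shown to differ (-0.05 ± 0.03, adjusted p = 0.237). Inside the bounds of ZNF704 and on its strand, the small nuclear RNA copy RNU11-6P was called higher in both clones (1.42 and 2.09), at means of 0.106 CPM in WT, 0.289 in clone 1 and 0.467 in clone 2. Pairs from the 2 genes cannot be told apart there.

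In the authors' deposited table, which sets both clones together against WT, the log2 fold changes were 2.67 for ZNF555, 2.05 for ZNF677, 0.93 for ZNF600 and 1.01 for ZNF704. The authors' deposited table gave -1.45 for ZNF683, -1.49 for ZNF703 and -1.16 for ZNF618. The mean of both clones against WT in the edgeR fit called 6 members, 3 each way (2.63%, against 6.53% of all genes tested, 2% higher and 4.53% lower): ZNF555, ZNF677 and ZNF704 higher, and ZNF683, ZNF703 and ZNF618 lower. The value of ZNF704, 1.002, lay at the fold itself and lost its call in 7 of 14 refits, in which it was no lower than 0.995.

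A further 13 members were more than 0.5 from WT on the log2 scale in at least 1 clone without being called in either, and are named here after their values were seen. ZNF532, which forms a complex with ZNF592, ZNF687 and the chromatin reader ZMYND8, lay near the fold in both clones. It was at 36.5, 34.0 and 34.4 CPM in WT, at 67.5, 61.8 and 66.1 CPM in clone 1 and at 70.2, 62.2 and 65.8 CPM in clone 2, with log2 fold changes of 0.90 and 0.92. Its 2 partners moved little: ZNF592 was at 0.22 and 0.16 and ZNF687 at 0.13 and -0.07. ZNF518B (0.43 and 0.93), the KRAB gene ZNF514 (0.68 and 0.65) and ZNF594 (0.76 and 0.42) rose past the adjusted p in both clones. The KRAB genes ZNF709 (-0.78 and -0.54) and ZNF583 (-0.61 and -0.44) and the pseudogene ZNF849P (-0.57 and -0.41) fell past it in both. In clone 1 alone, ZNF513 (-0.52) and the KRAB genes ZNF878 (-0.84) and ZNF846 (-0.65) were lower past the adjusted p, with -0.18, -0.22 and -0.11 in clone 2. In clone 2 alone, the pseudogene ZNF876P (-0.55) was, with -0.16 in clone 1. For each of these 4 the difference between the clones passed the adjusted p, at 0.33 for ZNF513, 0.62 for ZNF878, 0.54 for ZNF846 and -0.39 for ZNF876P. ZNF572 was at 0.22 (adjusted p = 0.0555) in clone 1 and -0.63 in clone 2, with a difference between the clones of -0.85 past the adjusted p. ZNF815P, a pseudogene at the limit of the rule, was called between the clones: it was at 1.43, 1.68 and 1.26 CPM in clone 1 and at 0.509, 0.614 and 0.631 CPM in clone 2, a difference of -1.31 ± 0.25 (adjusted p = 7.92e-05). WT lay between, at 0.878 to 1.10 CPM. With ZNF600 it made up the 2 members called between the clones (0.877%, against 2.82% of all genes tested, 1.58% higher and 1.23% lower). ZNF815P passed the level limit through clone 1, where it is high, so its call is a description and lends that count no support. Among the 224 members with every group mean at the limit or above, 1 was called between the clones.

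A few members with known roles are given for their function, also after their values were seen, and moved little. ZNF638, an RNA- and DNA-binding protein of nuclear speckles, had the highest level by count, at a mean of 247 CPM, with log2 fold changes of 0.10 and 0.10. ZNF644, a partner of the histone methyltransferases EHMT1 and EHMT2, was at 0.17 and 0.04. ZNF598, the ubiquitin ligase that marks collided ribosomes, was at -0.06 and -0.08, neither past the adjusted p. ZNF589, a KRAB gene described in haematopoietic stem cells, was at -0.10 and -0.08, also not past it. Per kilobase of exon, the highest members were the pseudogenes ZNF731P (80.3 CPM per kb) and ZNF767P (39.0), followed by ZNF593 (36.5), and the lowest were ZNF534 (0.165) and ZNF774 (0.289). All values per kilobase use exon lengths of GENCODE release 44. The annotation version behind the counts is not given, so these ranks hold only if its gene models are alike. Pairs that fit a pseudogene and its parent equally are kept apart from the gene counts. Of the 11 pseudogenes, 3 rose and 1 fell past the adjusted p in clone 1 (36.4%, beside 36.2% of all genes tested), and 3 rose and 3 fell in clone 2 (54.5%, beside 30.5%). Among all genes tested at 1 CPM or more the shares were 42.9% and 36.2%, and with 11 genes this is a description only.

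The third question was whether the clusters on chromosome 19 moved together. A cluster was a run of ZNF genes whose starts lay at most 500 kb apart, and 7 clusters held 5 or more members, 115 in all. The median log2 fold change of a cluster lay between -0.12 and 0.06 in clone 1 and between -0.08 and 0.13 in clone 2. In clone 1, 6 of the 7 clusters held members past the adjusted p in both directions, and in clone 2, 4 of the 7 did. The other 6 clusters than that from ZNF175 to ZNF331 had no called member. Of the 115 members in clusters, 38 passed the adjusted p in clone 1 and 32 in clone 2 (33% and 27.8%, beside 36.2% and 30.5% of all genes tested). Of protein-coding genes at 1 CPM or more, 48.7% and 41.8% did. One direction held throughout a cluster in a single case: in clone 2, all 14 members of the cluster from ZNF101 to ZNF254 had values below 0.

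The cluster from ZNF175 to ZNF331 (chr19:51571283-53580269) held 26 members, among them ZNF677 and ZNF600. Past the adjusted p, 5 of its members were higher and 5 lower in clone 1, and 2 were higher and 5 lower in clone 2. Its median was 0.01 and -0.06, and apart from ZNF677 and ZNF600 its members ranged no higher than 0.39. The KRAB genes ZNF613 and ZNF614 fell in both clones by small amounts, with -0.41 and -0.45 in clone 1 and -0.26 and -0.25 in clone 2. The KRAB gene ZNF615, which lies between them, was at -0.15 (adjusted p = 0.0831) in clone 1 and 0.02 (adjusted p = 0.862) in clone 2. The cluster from ZNF101 to ZNF254 (chr19:19668796-24129968) held 14 members. In clone 2 their values ran from -0.41 to -0.00 at a median of -0.08, and 4 were lower and none higher past the adjusted p. In clone 1, 8 of the 14 were below 0, at a median of -0.01 and between -0.57 and 0.14, and 3 were lower and 1 higher past the adjusted p. In the cluster from ZNF264 to ZNF446 (chr19:57191500-58481230), with 21 members, 7 were higher and 2 lower in clone 2, at a median of 0.13, and 6 were higher and 3 lower in clone 1, at 0.04. With unstranded counting the clone 2 median of these members was 0.08. The 12 other protein-coding genes tested inside the bounds of that cluster had medians of 0.11 in clone 2 and -0.02 in clone 1. In the cluster from ZNF653 to ZNF791 (chr19:11483427-12640098), with 14 members, 4 were lower and none higher in clone 1, at a median of -0.12, and 1 was lower in clone 2. The clusters from ZNF565 to ZNF573 (20 members) and from ZNF628 to ZNF835 (13 members) had members past the adjusted p in both directions in both clones, with medians of 0.02 and -0.03 in clone 1.

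In the cluster from ZNF414 to ZNF846 (chr19:8509678-9793180), with 7 members at medians of 0.06 and 0.02, the 4 other protein-coding genes tested inside its bounds had medians of -0.97 and -0.37. Of those 4, 3 were called in clone 1 and 1 in clone 2, while none of the 7 members was called. ZNF555 belonged to none of the 7 clusters. It was among 13 members on chromosome 19 outside them, and the only one of the 13 that was called.

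**Figure D4:**
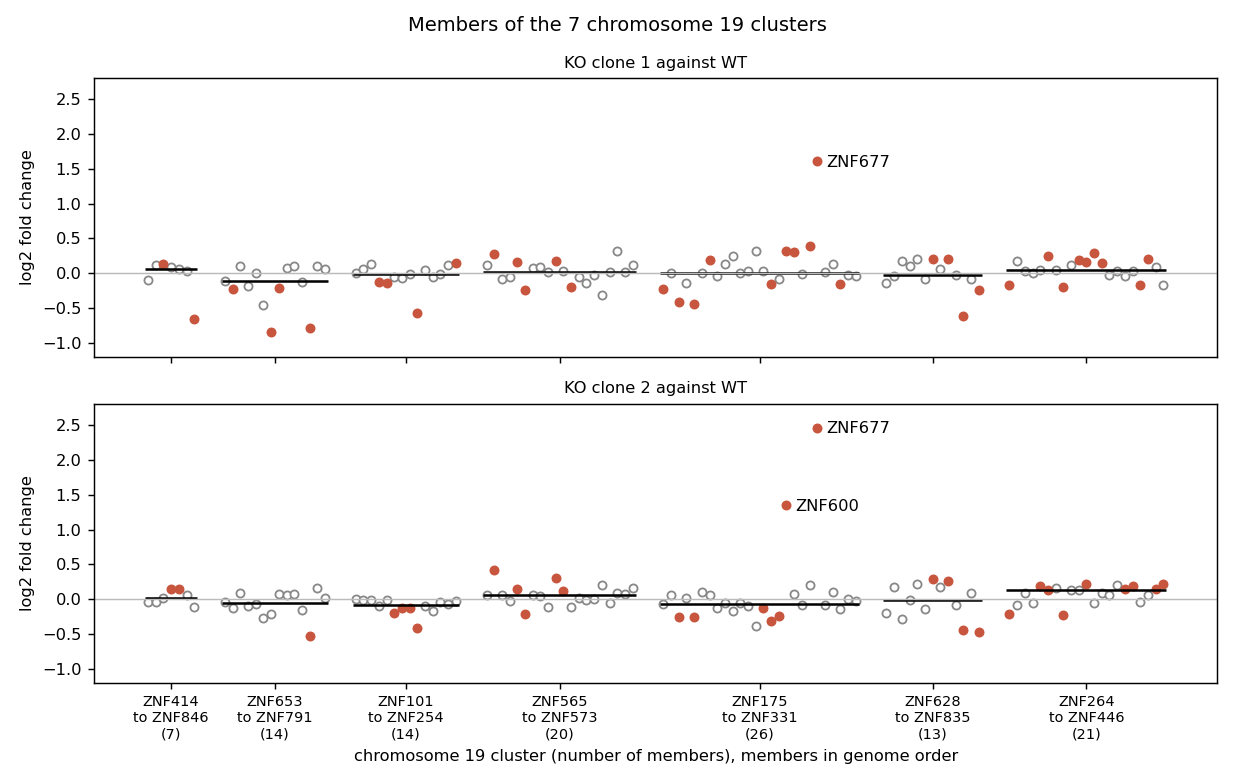
Log2 fold change against WT (y axis) of the 115 members in 7 clusters on chromosome 19, in genome order within each cluster (x axis), in clone 1 (top) and clone 2 (bottom). Filled points passed an adjusted p of 0.05, open points did not, and lines give cluster medians, which lie between -0.12 and 0.13, while ZNF677 stands at 1.61 and 2.46 and ZNF600 at 1.35 in clone 2.

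By structure, members with the KRAB pattern had medians of 0.01 and -0.01 in the 2 clones and members without it 0.08 and 0.05. Past the adjusted p, 25 KRAB members were higher and 26 lower in clone 1, and 22 were higher and 19 lower in clone 2 (34.9% and 28.1%, beside 36.2% and 30.5% of all genes tested). Of the 71 without the pattern, 20 were higher and 13 lower in clone 1 and 18 were higher and 8 lower in clone 2 (46.5% and 36.6%). Both sets lay below the 48.7% and 41.8% of protein-coding genes at 1 CPM or more, with no test of the difference made. The 2 called higher in both clones have the pattern and the 2 called lower in both do not, which with 4 genes is a description only.

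A list of 34 corepressor and heterochromatin genes was also followed, and all 34 were tested. It holds genes that KRAB proteins act through, such as TRIM28 and SETDB1, but also others, such as the TET genes. None was called in either clone in the edgeR fit, beside the 7.58% and 5.96% of all genes given above. Past the adjusted p, 7 were higher and 6 lower in clone 1 and 5 were higher and 8 lower in clone 2 (38.2% in each, beside 36.2% and 30.5% of all genes tested), with medians of 0.02 and 0.00. Among protein-coding genes at 1 CPM or more, the nearer background by level, 48.7% and 41.8% passed it. TRIM28, the corepressor itself, was at 315 ± 13.4 CPM (SD, n = 3) in WT, 321 ± 9.54 in clone 1 and 341 ± 6.91 in clone 2. Its log2 fold changes were 0.03 (adjusted p = 0.600) and 0.12 (adjusted p = 0.0104). SETDB1, the methyltransferase it recruits, was at 78.3 ± 1.46 CPM in WT, 82.6 ± 3.18 in clone 1 and 81.4 ± 2.87 in clone 2, past the adjusted p in neither. The list's largest falls were in DNMT3A, a de novo DNA methyltransferase (-0.68 and -0.30), and MORC2, an ATPase of the HUSH silencing pathway (-0.55 and -0.43). Its largest rise was in CHD3, a NuRD remodeller that KRAB corepression uses (0.34 and 0.38). DNMT3B fell in clone 1 (-0.47) and was at -0.05 (adjusted p = 0.314) in clone 2. TET1, which oxidises methylated cytosine, fell in clone 2 (-0.37) and was at 0.05 (adjusted p = 0.447) in clone 1. For both, the difference between the clones passed the adjusted p (0.42 and -0.43). Protein levels, histone marks and DNA methylation were not measured in these data.

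**Figure D5:**
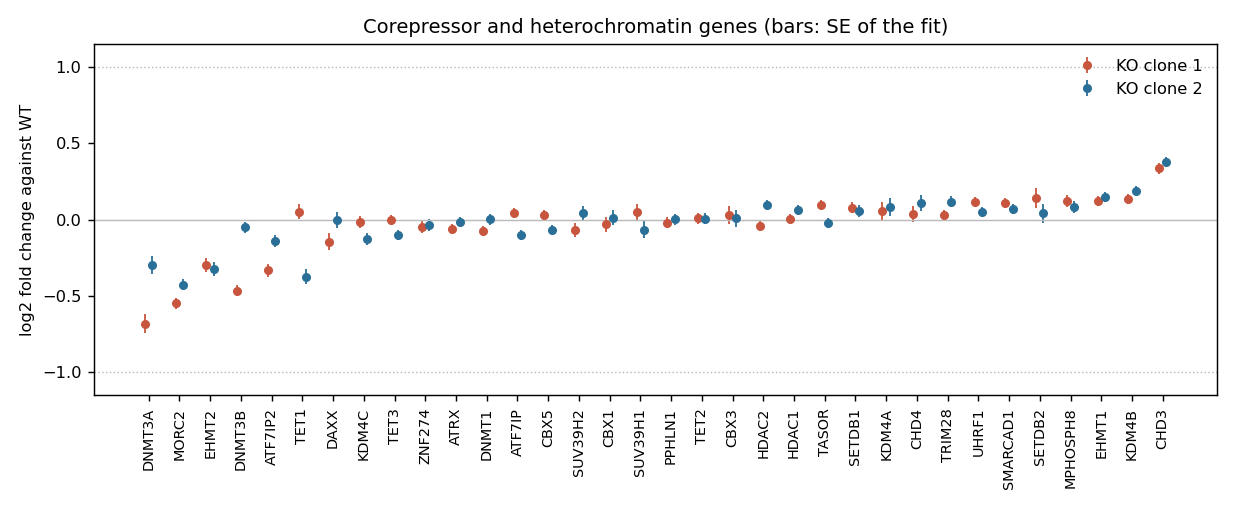
Log2 fold change against WT (y axis), with bars of 1 SE of the fit, for the 34 genes of the corepressor list (x axis, ordered by the mean of both clones). No gene reaches the dotted lines at -1 and 1, and DNMT3A (-0.68) in clone 1 and CHD3 (0.38) in clone 2 lie at the ends.

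Other sets of zinc finger genes are given beside the members. Of the 226 genes from ZNF1 to ZNF499 at 1 CPM or more, 4 were called in clone 1 (1.77%) and 2 in clone 2 (0.885%), the latter both higher in both clones. On the adjusted p alone, 35 of them were higher and 49 lower in clone 1 and 31 higher and 47 lower in clone 2, where the members had 48 and 40, and 43 and 30. Of 37 ZSCAN, ZKSCAN and ZFP genes, none was called in either clone by edgeR, with 14 and 10 at an unadjusted p under 0.05. The share of genes within 0.5 of WT in both clones was 91.2% for ZNF1 to ZNF499, the same to 3 digits as for the members. No difference between these sets was tested.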

How the data were processed

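RNA sequencing of total RNA gave paired reads, and the authors aligned them with STAR to GRCh38, per the labels and the submitters' processing notes. STAR and annotation versions are not given in the sources used here. The deposited count files hold raw counts of read pairs per gene in 3 countings. The stranded counting that held 92.03% to 92.31% of stranded counts was used. Rows naming no gene held 70.4% to 74.1% of all pairs in that counting and were left out. The authors' deposited table gives log2 fold changes and adjusted p-values from DESeq2 for both clones against WT, and 18 of its per-sample columns were not used.

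The analysis used edgeR 4.0.16 in R 4.3.3, with filterByExpr by group, TMM scaling, and a robust quasi-likelihood fit to all 9 libraries with 1 coefficient per group. Levels are CPM on TMM-scaled totals, and each standard error is the size of the fold change (log2) over the root of F. Adjusted p-values cover all 20655 genes tested. DESeq2 1.42.0, its size factors, no filter, unstranded counting, only the groups compared, a replicate block, each library left out, other level limits and other cluster gaps were alternatives. The fit was tested on simulated data of clone 1 against WT over 20555 genes. There, 50 of 50 genes passed the adjusted p at each log2 fold of -2, -1, 1 and 2. The changed genes were drawn from those above a minimum expected count, and all genes and libraries were given the same spread. Recovery of members near 1 CPM, or with a library that stands apart, was not tested. Fingers were counted as 2 cysteines 2 to 4 residues apart, 12 residues on from which lie 2 histidines 3 to 5 apart. Members, lists and tests were chosen with earlier results of these data known. Genes were named if called in both clones or between clones with a call in 1, if called in a cluster, if next to the level limit, and for TRIM28 and SETDB1, and others are said to have been named after their values were seen or stand for known roles. The libraries' groups come from the labels, and depth limits precision through counting error only.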

Additional observations from a re-analysis of the deposited data

Results flagged for a closer look

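By the test of the difference itself, in edgeR, 62 members (27.2%) passed the adjusted p between the clones. Of all genes tested 25.9% did, and of protein-coding genes at 1 CPM or more 37.7%. Only 2 members also reached the fold of 1 (0.877%, against 2.82% of all genes tested). ZNF600 was higher in clone 2 than in clone 1 by 1.02 on the log2 scale, in all 3 libraries. ZNF815P was lower in clone 2 than in clone 1, by -1.31 on the log2 scale, in all 3 libraries, at levels near 1 CPM where 3 counts correspond to 0.0695 to 0.107 CPM. It passed the level limit only through clone 1 (1.45 CPM, against 0.976 in WT and 0.585 in clone 2), so its call is a description.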

How the results depend on the processing

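Of 136 counts recomputed under alternatives, 128 stayed within 1.5 times the value reported. The 4 members called in both clones were kept in each of the 14 refits. With the adjusted p alone and no fold minimum, the counts were 88 in clone 1, 73 in clone 2, 41 in both in the same direction, 96 for the mean of both clones and 62 between the clones. Between the clones the count went from 2 to 1 with members at 2 CPM or more, and ranged from 1 to 2 when each library was left out: ZNF600 came to 0.99 without library 2 of clone 1 and to 0.97 without library 2 of clone 2. Of 590 values of 10 single genes under alternatives, 580 kept their direction and side of the threshold. Besides the 2 of ZNF600 the exceptions were ZNF618 in clone 2, at -1.01 without library 2 of WT, and ZNF704 for the mean of both clones in 7 refits. In these, ZNF704 was at 0.998 with no filter, 0.998 with unstranded counting, and 0.995 to 1 without WT library 1 or 3, clone 1 library 1 or 3 or clone 2 library 1, and the count of members called for the mean was 5. With gaps of 250 or 1000 kb the number of clusters was between 6 and 8. The replicate numbers did not pair the libraries (correlations of deviations between -0.014 and 0.012 for WT and clones), and with the replicate number as a block the counts were 6 in clone 1, 5 in clone 2, 4 in both and 2 between the clones, as reported. Members near 1 CPM, such as ZNF815P and ZNF534, rest on the fewest counts.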
